A study of Mus musculus with 7 samples.

Results

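Nuclei with transcripts of macrophage genes, but of none of 4 genes of alveolar macrophages, were studied here in small cell lung cancer of the mouse. They numbered 170 of the 38254 nuclei kept from 4 tumor-bearing lungs. Both RP animals carried Rb1 fl/fl and Trp53 fl/fl, and both RPC animals carried in addition a Casp8 allele that the labels give as Casp8-/- and that the study's methods describe as a conditional allele. All 4 mice were male adults that received an adenovirus with Cre under the CMV promoter into the trachea, so recombination was not tied by the promoter to one cell type, and the tumors were frozen at the endpoint. Nuclei were fixed, barcoded by split-pool labeling in wells that each held 1 animal, and spread over 7 libraries that each pooled all 4 animals. The animal was therefore the replicate, with 2 per genotype, and wherever 4 values are given without names they stand in the order RP1, RP2, RPC1, RPC2.

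A nucleus was taken as a member when at least 3 of 9 macrophage genes (Mertk, Colec12, Myo1f, Cd84, Apobec1, Tbxas1, Csf1r, Mrc1 and Gpnmb) had a transcript, when these 9 made up at least 0.2% of its transcripts, and when no transcript of Atp6v0d2, Chil3, Marco or Krt79 was seen, since those 4 genes mark alveolar macrophages. The rule thus used measured values, and the levels of its 13 genes are given only as a description. The members numbered 44, 64, 22 and 40 in the 4 animals. A further 384 nuclei met the marker part of the rule but held a transcript of at least 1 of the 4 excluded genes, and they are called alveolar-transcript nuclei below.

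Macrophages of the lung comprise alveolar macrophages, which live in the airspace and clear surfactant, and interstitial macrophages, which sit in the tissue around vessels, airways and nerves. Tumors hold in addition macrophages that arise from blood monocytes recruited through receptors such as Ccr2. Tissue macrophages depend on signaling through Csf1r, the receptor for colony-stimulating factor 1, and they recognize dying cells through receptors such as Mertk, take them up and degrade them in the lysosome. Macrophages in tumors can make growth factors, proteases and inhibitory signals, and can also present antigen to T cells.

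The members carried little RNA per animal. Their summed transcripts were 119402, 170381, 119773 and 100997, and the median per nucleus was 2158, 2069, 3281.5 and 2041.5 transcripts. The deepest nucleus gave 8.03%, 5.95%, 16.1% and 8.73% of the sum. Over all kept nuclei the median depth was 2255, 2223, 3392 and 2767 transcripts, so RPC1 was the deepest animal in both sets. No cell barcode was shared between animals. In sums over nuclei, fewer cells of a type and less RNA per cell cannot be told apart.

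The 3 targeted genes were examined first. In the members, Casp8, the protease that starts extrinsic apoptosis and restrains necroptosis, had 21, 37, 20 and 14 transcripts. Its level was 176, 217, 167 and 139 per 1000000 summed transcripts (CPM), so both RPC animals lay below both RP animals, and the difference did not pass the test (log2 fold change −0.49 for RPC over RP, adjusted p = 0.68, edgeR with Benjamini-Hochberg adjustment). Rb1 had 41, 39, 42 and 29 transcripts (log2 fold change 0.05, adjusted p = 0.98, edgeR) and Trp53 had 1, 5, 4 and 2, too few to be tested. Counts over a whole gene do not resolve the deleted part, so these values check neither the labels nor recombination in the members.

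The share of members among kept nuclei was 0.526% (95% exact binomial interval 0.383 to 0.706) and 0.721% (0.556 to 0.920) in the RP animals, and 0.203% (0.127 to 0.307) and 0.394% (0.281 to 0.536) in the RPC animals. The intervals cover counting error only. Both RP animals lay above both RPC animals, with means of 0.624% ± 0.138 (SD, n = 2) and 0.298% ± 0.135 (SD, n = 2). The difference was −0.326 percentage points, with p = 0.33 in a two-sided exact permutation test over animals, which is the smallest p that 2 against 2 animals allow. The genotypes also differed in depth, so nuclei with at least 1000 transcripts were thinned to 1000. Shallower nuclei were left out, so 7145, 7666, 10558 and 9441 nuclei entered. The difference in the share of members was then −0.268 points. At that depth 13 of 32, 34 of 130, 25 of 124 and 21 of 84 alveolar-transcript nuclei lost every transcript of the 4 excluded genes, and 11, 19, 16 and 12 of these still met the marker part of the rule. Membership itself thus depended on depth, and alveolar-transcript nuclei could meet the whole rule when read at lower depth.

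The separation of the animals was seen for the members and not for the wider set of macrophage-marker nuclei. Alveolar-transcript nuclei made up 0.407%, 1.53%, 1.16% and 0.866% of kept nuclei, so the lowest and the highest value both belonged to RP. Members and alveolar-transcript nuclei together made up 0.933%, 2.25%, 1.36% and 1.26%. RPC1, with the lowest share of members, had the deeper nuclei, and RP1 had the fewest alveolar-transcript nuclei. The difference between genotypes in the combined share was −0.282 points with all 4 animals, 0.379 without RP2 and −0.942 without RP1. As a share of the marker nuclei of the animal, members were 56.4%, 32.0%, 14.9% and 31.3%, and RP2 and RPC2, with 95% intervals of 25.6 to 38.9 and 23.4 to 40.04, lay within each other's. By barcoding well, the share of members ranged from 0.415% to 0.633% over 2 wells of RP1 and from 0.645% to 0.799% over 2 of RP2. It ranged from 0.0600% to 0.286% over 3 wells of RPC1 and from 0.360% to 0.430% over 2 of RPC2, so 1 well of RPC2 lay above the lowest well of RP1.

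**Figure D1:**
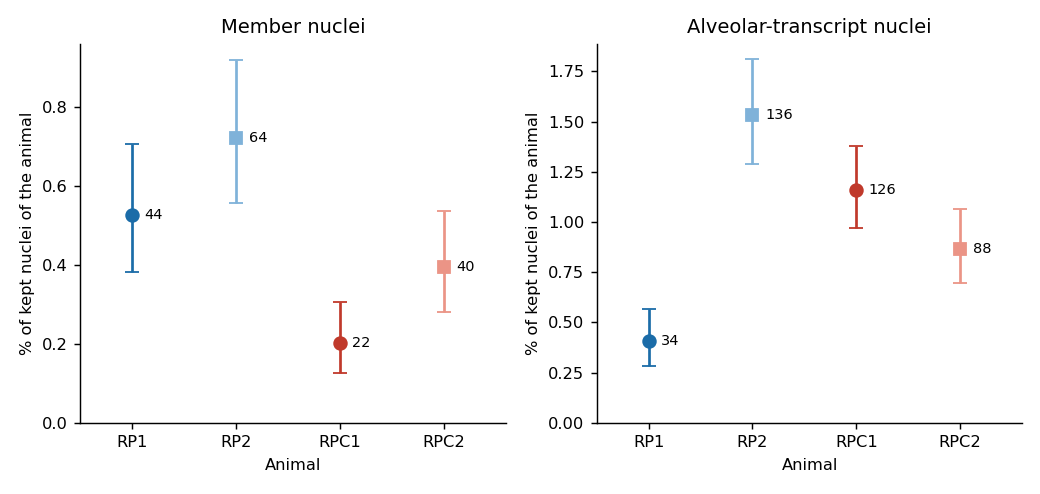
Share of kept nuclei (%, axis from 0) that were members (left) and alveolar-transcript nuclei (right) in each animal, with exact 95% binomial intervals as bars and the number of nuclei beside each point. Both RP animals (0.526% and 0.721%) sat above both RPC animals (0.203% and 0.394%) for members, whereas RP1 was the lowest and RP2 the highest for alveolar-transcript nuclei.

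Among the 9 genes that chose the members, Mertk had a transcript in 93.2%, 78.1%, 100% and 87.5% of the members. Csf1r had one in 52.3%, 59.4%, 72.7% and 55.0%. Colec12, a scavenger receptor that stromal cells also make, had one in 18.2%, 31.3%, 9.09% and 37.5%, and Gpnmb, a glycoprotein of phagocytic cells, in 18.2% to 22.7%. These shares are set by the rule and by depth. Of the 170 members, 38 had exactly 3 of the 9 genes, 26 had 4 and 1 had all 9. The summed level of a list of 25 general macrophage and monocyte genes that the rule did not use was 3821 CPM in the 17 members whose marker share lay from 0.2 to under 0.25%, 3989 CPM in the 18 nuclei just outside at 0.15 to under 0.2%, and 9228 CPM in the 153 members further in.

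Ranked by the ratio over all other kept nuclei, the members were led by genes of macrophages. Of 1927 genes outside the rule with at least 10 transcripts in the members of each animal, 334 (17.3%) were more than 2 times higher than in all other kept nuclei in every animal, 69 (3.58%) more than 16 times, and 65 (3.37%) were below 0.5 times. No test was made of these differences, because the members were chosen by genes of the same nuclei. Adgre1, which encodes the macrophage surface protein F4/80, was at 369, 340, 334 and 386 CPM in the members, against 3.08 to 4.54 CPM in all other kept nuclei. Stab1, a scavenger receptor of tissue macrophages, was at 578, 540, 301 and 762 CPM, against 3.97 to 6.53 CPM. The members of each animal lay far above its other nuclei for both genes, with animals close together for Adgre1 and RPC1 below RPC2 for Stab1.

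The other leading genes fell into a few roles. Lair1 (inhibitory collagen receptor), Lilrb4a, Cd300c2 and Il10ra (receptor for interleukin 10) encode inhibitory or regulatory receptors. Lair1 stood at 225 to 260 CPM in the members against 2.21 to 3.29 CPM in all other kept nuclei. Msr1 (scavenger receptor A), Dab2 (endocytic adaptor) and Ly86 (partner of a Toll-like receptor homolog) serve uptake and sensing, and Ly86 ranged from 238 to 511 CPM, against 3.38 to 8.06 CPM. Hpgds, Pla2g7 and Aoah encode enzymes that act on lipid mediators or bacterial lipid, and Hpgds ranged from 164 to 284 CPM, against 2.67 to 3.27 CPM. Fyb and Inpp5d act below immune receptors, and Vcam1 and Tgfbi encode an adhesion molecule and a secreted matrix protein. The ranking over all other nuclei does not set the members apart from alveolar-transcript nuclei. There Lair1 was at 90.8 to 131 CPM, lower than in the members in each animal. Lilrb4a was at 180 to 242 CPM there, against 109 to 205 CPM in the members.

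**Figure D2:**
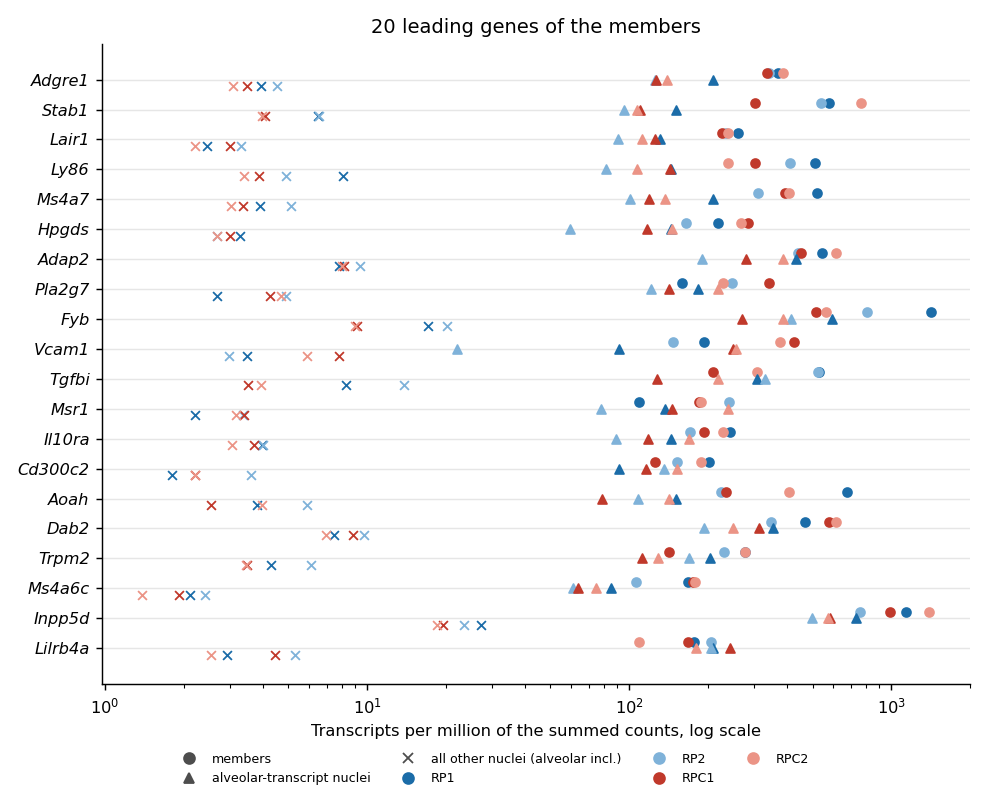
Level (CPM, log scale) of the 20 leading genes in members (circles), alveolar-transcript nuclei (triangles) and all other kept nuclei including those (crosses), with 1 color per animal. In every animal the members lay above all other nuclei, from 334 to 386 against 3.08 to 4.54 for Adgre1.

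Reading depth and free RNA were checked in nuclei with at least 1000 transcripts, each thinned to 1000. Adgre1 then had a transcript in 25.6%, 32.1%, 33.3% and 35.1% of the members, which were 53.8%, 58.5%, 76.2% and 40.5% in the same nuclei before thinning. In endothelial-rule nuclei, which should lack it, the thinned share was 0 in 3 animals, of which 65, 80 and 77 such nuclei entered, and 0.893% of 112 in RPC2. In alveolar-transcript nuclei it was highest in RP1 at 25.0%. The thinned shares rested on 39, 53, 21 and 37 members.

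Beside the alveolar-transcript nuclei, differences were few. Of the 1927 genes, 17 (0.882%) were more than 2 times higher in the members in every animal, and of 3469 genes with enough transcripts in alveolar-transcript nuclei, 31 (0.894%) were more than 2 times lower. Stab1, at 95.5 to 150 CPM in alveolar-transcript nuclei, and Ms4a7, at 100 to 209 CPM there against 311 to 519 CPM in the members, belonged to the higher genes. So did the transcription factor genes Mef2c (83.8, 170, 159 and 228 CPM in the members against 13.1, 18.8, 27.5 and 38.5) and Rbpj (352, 528, 384 and 1020 CPM against 84.9, 128, 111 and 118), the latter a mediator of Notch signaling. Rcsd1, Adam19, Arhgap15, Fgd2, Sh3pxd2a and the noncoding gene Mir99ahg completed the 10 largest.

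The lower genes included several that alveolar macrophages are known for. Ctsk, a lysosomal protease, was at 8.38, 35.2, 16.7 and 19.8 CPM in the members against 215, 304, 274 and 278 CPM. Cd36, the receptor for oxidized lipid and fatty acids, was at 0, 35.2, 8.35 and 0 CPM against 176, 149, 108 and 246 CPM. Lepr, the leptin receptor, was at 41.9, 52.8, 0 and 29.7 CPM against 248, 172, 177 and 248 CPM. Col24a1, Met, Nrg4, Prkar2b, Kcnip4, Gm47507 and C77080 completed the 10 largest of this direction. The absence of 4 alveolar macrophage genes defined the members, so these differences are given without a test.

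The label "macrophage and monocyte" was checked against marker lists, which gave high values for macrophage genes and lower and uneven values for monocyte genes. Of the 25 general macrophage and monocyte genes, 24 were more than 2 times above all other nuclei in each animal, and their sum was 11022, 7430, 7038 and 7119 CPM, against 261, 300, 217 and 176 CPM. Of 18 genes of resident and interstitial macrophages 9 were, and their sum was 1549, 2007, 1211 and 3683 CPM against 154 to 179 CPM. The complement gene C1qb had 14, 39, 21 and 21 transcripts, whereas Lyve1, Folr2 and Timd4, which mark subsets of resident macrophages, had 2, 1 and 1 transcripts in all members. Of 12 classical monocyte genes none reached 2 times in every animal. Ly6c2 had no transcript, which allows at most 3 among the members' transcripts, and Ccr2 had 0, 2, 5 and 0. The sum of the classical monocyte list was 58.6, 745, 209 and 168 CPM in the members, against 78.8, 117, 120 and 48.0 CPM in all other nuclei, so it was above them in 3 animals and below in RP1. It was mostly fibronectin (Fn1), which other cells make too, with 138 of the 176 transcripts and 113 of these in RP2. The 12 nonclassical monocyte genes had 79 transcripts, and their sum of 209, 188, 91.8 and 109 CPM was above that of all other nuclei in each animal (53.4, 67.4, 79.2 and 63.8 CPM) and below that of the alveolar-transcript nuclei (270 to 396 CPM). The integrin gene Itgal gave the most, with 30 transcripts. Cd36 is on this list too, at 176, 149, 108 and 246 CPM in the alveolar-transcript nuclei against 0, 35.2, 8.35 and 0 CPM in the members. The comparison with the alveolar-transcript nuclei thus rested in part on Cd36. The nuclei are therefore called macrophage-like here, without the monocyte part of the label.

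The word "other", which sets the members apart from alveolar macrophages, was checked with 12 alveolar macrophage genes that the rule did not use. Their sum was 921, 974, 576 and 663 CPM in the members, above all other nuclei (132, 181, 263 and 186 CPM) and at 43.9% to 60.8% of the alveolar-transcript nuclei (1312 to 1691 CPM). It came mostly from the lipid exporter gene Abcg1 (150 transcripts), Itgax (122), Lpl (58) and Pparg (57), which macrophages outside the airspace can also express. Siglecf, Car4, Ear1, Cidec and Fabp1 had no transcript in the members, and in the alveolar-transcript nuclei each of these 5 was at or below 6.53 CPM in every animal. These values do not show that all members were other than alveolar macrophages.

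Lists of other cell types did not all give low values. The B and plasma cell list was at 142, 217, 150 and 257 CPM, above all other nuclei in each animal (105, 38.2, 36.6 and 44.1 CPM), and 75 of its 98 transcripts were of Ebf1 and Bank1. The neutrophil list was at 92.1, 88.0, 25.0 and 59.4 CPM against 3.86 to 7.87 CPM. Of its 35 transcripts 29 were of Csf3r, a cytokine receptor gene that monocytes share, and 8 of its 11 genes, among them S100a8 and S100a9, were at 0. The endothelial list was at 129 to 251 CPM against 96.0 to 143 CPM, above the other nuclei in all animals but RPC2.

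Of the remaining lists, those of dendritic cells and fibroblasts were above the other nuclei in some animals, and the rest were below them in every animal. Mast cell and basophil genes were at 0 for 7 of 8. The T and NK cell list was at 228 to 626 CPM against 831 to 1318 CPM and was mostly Skap1. The dendritic cell list was at 945 to 1533 CPM against 950.4 to 1149 CPM and was mostly Cadm1. It was above the other nuclei in RP1 (1533 against 950 CPM) and RPC1 (1428 against 1007 CPM) and below them in RP2 and RPC2. Genes of the alveolar epithelium were at 151 to 176 CPM against 235 to 345 CPM. The tumor list stood at 2547 to 4342 CPM, which was 35.9% to 45.4% of its level in the other nuclei, and how much of it was free RNA was not tested. Fibroblast genes were at 25.1, 211, 259 and 317 CPM, against 90.6, 121, 62.7 and 57.8 CPM in all other nuclei, so they were below the other nuclei in RP1, above them in 3 animals, and highest in both RPC animals.

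**Figure D3:**
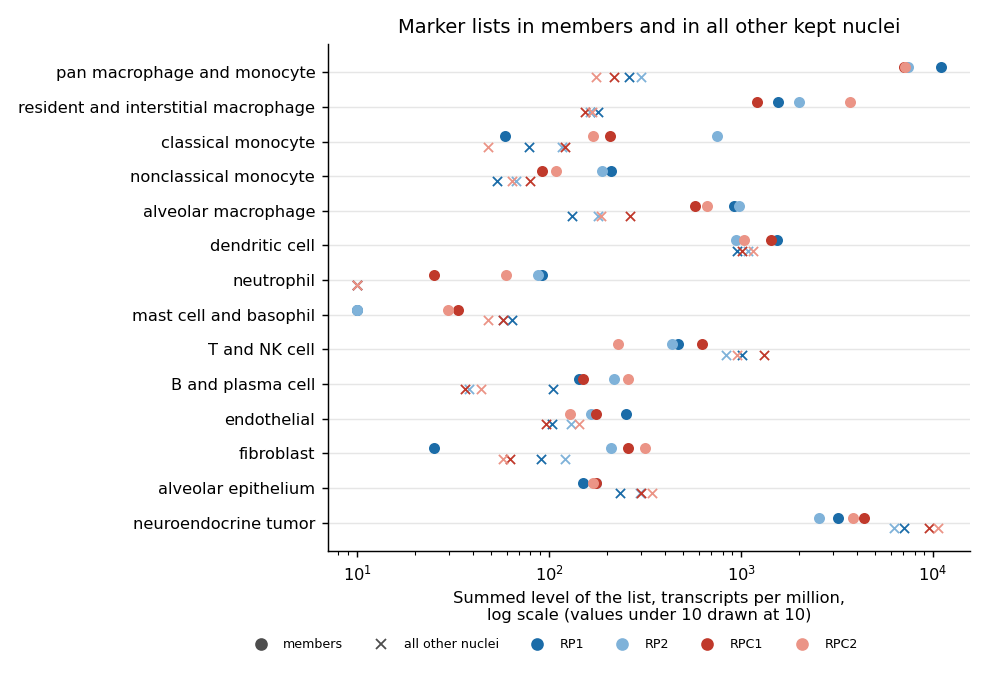
Summed level of 14 marker lists (CPM, log scale) in members (circles) and all other kept nuclei (crosses), 1 color per animal. The general macrophage list stood at 7038 to 11022 against 176 to 300, the classical monocyte list was highest in RP2 (745) and below the other nuclei in RP1 (58.6), and the fibroblast list ranged from 25.1 in RP1 to 317 in RPC2.

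The fibroblast transcripts lay in few nuclei. In 5 members (3 from RPC2, 1 from RPC1 and 1 from RP2) the 8 fibroblast genes had more transcripts than the 25 general macrophage genes, with 9 to 28 against 0 to 5. These 5 nuclei had no transcript of Csf1r, Adgre1, Stab1 or Ptprc, the leukocyte common antigen. They held 41 of the 220 Colec12 transcripts of the members (18.6%) and all 22 transcripts of Pdgfra, the platelet-derived growth factor receptor of fibroblasts. They met the rule but went against the label. Calls that rest on them are given with and without them, and the groups described next only with them.

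Clustering of the 170 members on 951 genes gave 3 groups, which are described by their leading genes and given no cell type name. Group 1 held 91 nuclei (30, 26, 16 and 19 by animal) and was led by Cd72, the iron exporter gene Slc40a1, Sirpb1a and Pecam1. Within it Itgax, which encodes the integrin CD11c, was at 323 CPM, against 158 in group 2 and 0 in group 3, and Cx3cr1, the fractalkine receptor, was at 105 CPM, against 15.03 and 77.7.

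Group 3 held 28 nuclei (5, 8, 2 and 13) and was led by F13a1, which encodes coagulation factor XIII-A, and Rbpj. F13a1 had 112 transcripts in 19 of its nuclei, at 1740 CPM against 4.48 CPM in the other members. Stab1 stood at 1756 CPM in group 3, against 422 in group 1 and 218 in group 2. The haptoglobin-hemoglobin receptor gene Cd163 was at 575 CPM and at 0 in the other groups. Mrc1, the mannose receptor gene, was at 1632 CPM against 348 and 203, Maf at 482 against 131 and 45.1, and Selenop at 249 against 47.9 and 45.1. Siglec1 and Abca9 were also among its 10 leading genes.

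Group 2 held 51 nuclei (9, 30, 4 and 8) and was led by Eln (elastin), Prex2, Angpt1, Nox4, Prkg1 and Mylk, genes of stromal and contractile cells. In that order, these genes were seen in only 9, 7, 5, 5, 10 and 10 of its 51 nuclei. Its general macrophage list was the lowest at 5093 CPM, against 9285 in group 1 and 8687 in group 3, and its fibroblast list the highest at 654 CPM, against 28.7 and 93.2. All 5 nuclei with Pdgfra, which are those described above, were in it, and they held 93.7% of the members' Eln transcripts. The levels of the group include them. Fn1 (586 CPM) and the lipoprotein lipase gene Lpl (255 CPM) were also highest in this group, Lpl in 16 of its nuclei. RP2 held 113 of the members' 138 Fn1 transcripts and 42 of their 58 Lpl transcripts. A trait of the group and a trait of RP2 cannot be told apart for these 2 genes.

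**Figure D4:**
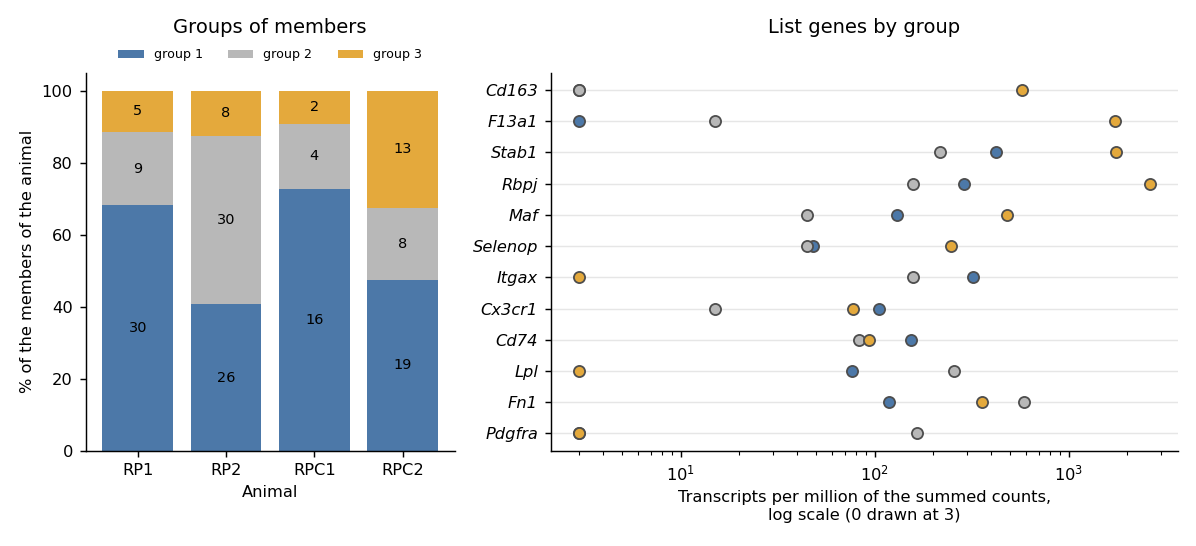
Left, percent of the members of each animal in the 3 groups, with the number of nuclei in each segment; right, level (CPM, log scale, 0 drawn at 3) of list genes by group. Group 3 made up 32.5% of RPC2 and 9.09% to 12.5% of the other animals, and stood alone in Cd163 and high in F13a1, Stab1 and Rbpj.

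Animals of 1 genotype differed from each other in these genes. F13a1 had 3, 29, 0 and 82 transcripts, and Cd163 had 0, 15, 0 and 22. For both genes RP2 and RPC2 were high and the other 2 animals were at or near 0, so the genotypes overlapped. On the log2 scale RPC stood 1.78 ± 0.96 (SE) above RP for F13a1 (adjusted p = 0.51, edgeR) and 0.92 ± 1.04 for Cd163 (adjusted p = 0.82, edgeR).

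RPC and RP members were then compared on summed counts per animal, to ask whether macrophages in tumors of the 2 genotypes differed. edgeR called 28 of 3121 genes (0.897%) at a Benjamini-Hochberg adjusted p under 0.05, of which 13 (0.417%) were higher and 15 (0.481%) lower in RPC, and 363 (11.6%) had an unadjusted p under 0.05. Among the higher genes were Eln and C7, which are known from stromal cells, and Ms4a4a. Among the lower genes were the glucose transporter gene Slc2a1 and genes that were lower in all other nuclei too. Both RPC animals lay above both RP animals for 649 genes (20.8%) and below them for 646 (20.7%), and the median log2 fold change over all genes was −0.01. No gene was called by edgeR when the 5 nuclei with fibroblast transcripts were left out, with 345 of 3084 genes (11.2%) at an unadjusted p under 0.05. Of the 28 genes, 8 then had too few transcripts to be tested. The other 20 kept their sign, 18 of them with a log2 fold change within 0.2 of the value with all members, and their adjusted p ranged from 0.066 to 0.41 (edgeR). Leaving out RP1 gave 51 calls, RP2 71, RPC1 50 and RPC2 81, and the 28 genes kept their sign in each setting that gave them a value.

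Of the 10 higher genes with the smallest p, most were carried by the 5 nuclei. Csmd1, a complement regulator gene (chromosome 8, 15942537 to 17585602, GRCm39), had 1, 11, 74 and 126 transcripts, in 1, 2, 4 and 2 nuclei, and RPC stood 4.37 ± 0.55 (SE) above RP on the log2 scale (adjusted p = 0.0012, edgeR). The 5 nuclei held 187 of its 212 transcripts (88.2%). Eln had 2, 24, 70 and 62 transcripts (log2 fold change 2.66, adjusted p = 0.021, edgeR), with 148 of 158 (93.7%) in these nuclei. C7, a gene of the terminal complement pathway, had 0, 6, 147 and 9, and all 147 of RPC1 came from 1 nucleus. The 5 nuclei also held 93.9% of the transcripts of the oxygenase gene Fmo2, 91.1% of those of the signaling adaptor gene Grb10, 87.5% of those of 9530026P05Rik and all of those of 4930578G10Rik. 4930578G10Rik was not seen in RP, and its 36 transcripts in RPC lay in 4 of the 5 nuclei. Against a floor of 3 transcripts over RP, its level in RPC was 15.8-fold higher. This value covers transcript counts only, not differences between nuclei or animals. Without the 5 nuclei these 7 genes had too few transcripts to be tested.

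The remaining 3 of these 10 were spread over more nuclei. Ms4a4a (chromosome 19, 11352823 to 11370154), a membrane protein gene of the same family as Ms4a7, had 5, 18, 41 and 47 transcripts, found in 5, 11, 15 and 23 nuclei. The RPC animals lay above the RP animals, and no nucleus held more than 6 transcripts. The log2 fold change was 2.23 ± 0.43 (SE), with an adjusted p of 0.021 (edgeR), and 2.31 without the 5 nuclei (adjusted p = 0.066, edgeR). It did not pass without RP1 (1.74). In all other kept nuclei it stood at 0.405, 1.05, 2.10 and 2.09 CPM. Frmpd4 (9, 32, 111 and 44 transcripts) and Sdk1 (22, 33, 99 and 50), genes of neuronal scaffolding and adhesion, were also higher in both RPC animals, with log2 fold changes of 2.18 and 1.67, and neither passed without RP1 (1.67 and 1.59). All 3 genes were higher in both RPC animals in all other nuclei too, with log2 fold changes of 1.47 for Ms4a4a, 2.15 for Frmpd4 and 0.81 for Sdk1. Frmpd4 was there at 305 and 472 CPM in RP and 2212 and 1375 CPM in RPC, and Sdk1 at 611 and 443 CPM in RP and 1024 and 908 CPM in RPC.

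Among the lower genes, Slc2a1 (chromosome 4, 118965908 to 118996365), which encodes the glucose transporter GLUT1, had 15, 37, 0 and 1 transcripts, in 9, 13, 0 and 1 nuclei. Both RP animals lay above both RPC animals, with 52 transcripts in RP and 1 in RPC, a ratio of 39.6 per summed transcript (95% counting interval 6.80 to 1594), and one nucleus held 20 of the 37 in RP2. The log2 fold change was −5.11 with an adjusted p of 0.020 (edgeR), and without the 5 nuclei it was −5.05 with an adjusted p of 0.066 (edgeR). The gene did not pass without RP2.

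Several lower genes also stood lower in RPC outside the members. The actin regulator gene Cap1 had 50, 54, 12 and 9 transcripts in the members (log2 fold change −2.06, adjusted p = 0.021, edgeR), and in all other nuclei it was at 557, 408, 46.1 and 55.6 CPM (log2 fold change −3.30). Pabpc4, which binds the poly(A) tail, had 28, 25, 3 and 3 transcripts in the members and a log2 fold change of −2.86, against −3.90 in the other nuclei. Both genes lie within 122252832 to 123692720 of chromosome 4, the stretch of annotated sequence from 0.5 Mb before Cap1 to 0.5 Mb beyond Pabpc4 that also holds the oncogene Mycl. Of 5 genes tested in it, 4 were lower in RPC members and 3 were called lower (Cap1, Pabpc4 and Trit1), beside 15 of 3121 (0.481%) over all genes. The window was drawn around Cap1, Trit1 and Pabpc4 after their values were seen, so the 3 calls were fixed by that choice. All 5 were lower in RPC in the other nuclei. Mycl itself had 0, 3, 0 and 0 transcripts in the members.

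Gm30835, Scarna2, Adgrb3 and Lars2 behaved likewise, with log2 fold changes of −3.69, −2.71, −2.36 and −2.54 in the members and −5.17, −2.14, −2.04 and −2.07 in the other nuclei. Lars2 had 1634, 1776, 287 and 213 transcripts and made up 1.37%, 1.04%, 0.240% and 0.211% of the members' transcripts. Rn18s-rs5, a ribosomal RNA gene, made up 7.90%, 9.34%, 2.65% and 4.63% in the members and 9.99%, 8.49%, 3.09% and 5.35% elsewhere. How much RNA from other nuclei contributed to these differences was not tested. The splicing factor gene U2af2 (24, 28, 4 and 2 transcripts) and the channel regulator gene Kcnip1 (55, 30, 7 and 5) were also among the 10 lower genes with the smallest p, at −2.82 and −2.61. In the test on all other kept nuclei, the adjusted p of the 28 genes ranged from 0.199 to 0.990 (edgeR).

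**Figure D5:**
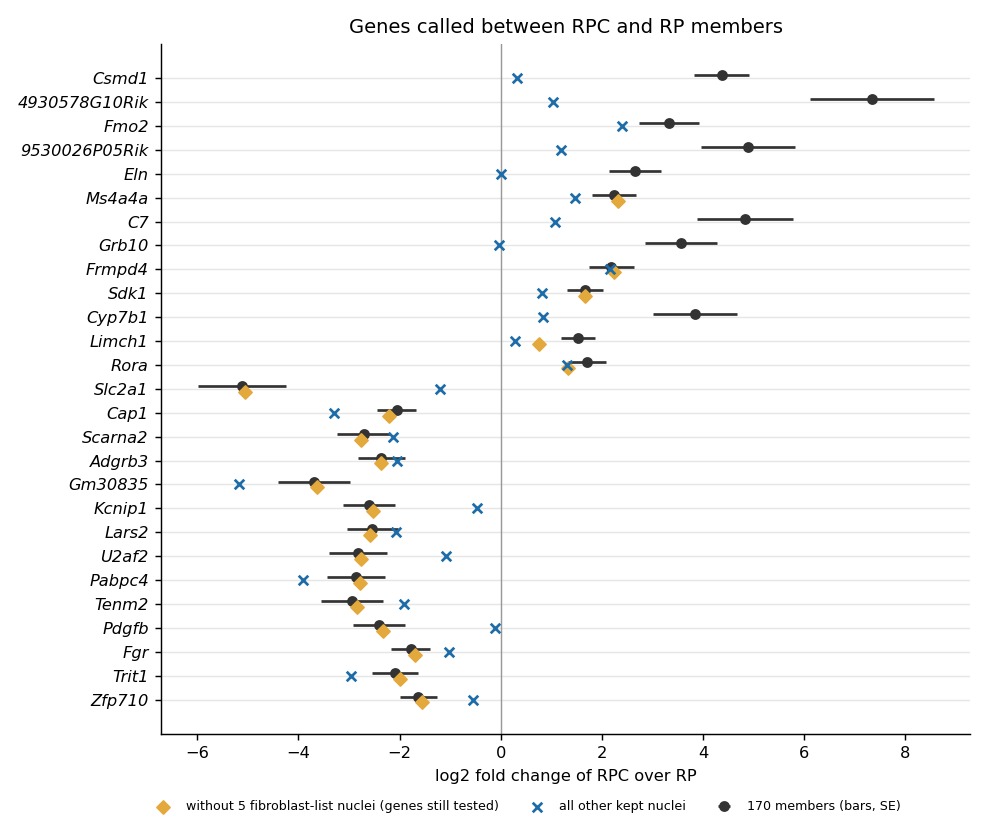
Log2 fold change of RPC over RP for genes called in the 170 members (circles, bars are SE; 1 called gene is not shown), for the same genes without the 5 nuclei with fibroblast transcripts where still tested (diamonds), and in all other kept nuclei (crosses). The missing diamonds are on the higher side, and Slc2a1 lay at −5.11 in the members against −1.19 in the other nuclei.

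Of the gene lists for macrophage identity and function, only 1 held a called gene. The list medians given here and below include the 5 nuclei with fibroblast transcripts, which held 0 to 5 general macrophage transcripts each. Of 21 tested general macrophage genes none was called by edgeR, with 5 above 0, a median log2 fold change of −0.67 beside −0.01 over all genes, and 11 for which both RPC animals lay below both RP animals (20.7% over all genes). Itgam, the integrin CD11b gene, had 17, 39, 6 and 6 transcripts (log2 fold change −1.90, adjusted p = 0.10, edgeR). Fyb, an adaptor of immune cell adhesion, had 169, 137, 62 and 57 (−1.14, adjusted p = 0.14, edgeR), and Spi1, the master regulator of myeloid cells, had 32, 43, 19 and 10 (−1.12, adjusted p = 0.24, edgeR). All 3 were lower in both RPC animals, and Itgam and Fyb were lower there in all other nuclei as well (log2 fold change −1.68 and −1.09).

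Receptors and uptake genes gave no calls either. Of 8 tested Fc and inhibitory receptor genes 6 were lower in both RPC animals (20.7% over all genes), with a median of −0.54 beside −0.01 over all genes, and the inhibitory receptor gene Pirb had 25, 23, 6 and 8 transcripts (−1.52, adjusted p = 0.23, edgeR). Of 13 efferocytosis genes the median was −0.47, with 3 above 0. Both RPC animals were lower for 7 of them and higher for 1 (20.7% and 20.8% over all genes). Dock2 had 141, 132, 84 and 63 transcripts. Elmo1, which acts below uptake receptors, had 178, 169, 187 and 143 (0.15). The lysosome and lipid list had a median of −0.33 over 17 genes, with 5 above 0. Both RPC animals were lower for 7 of these genes and higher for 3. Among the 3 was Lamp2, a lysosomal membrane protein gene, at 8, 12, 23 and 21 transcripts (1.40, adjusted p = 0.21, edgeR). The lipid exporter gene Abca1 had 88, 147, 104 and 114 transcripts (0.19), and the genotypes overlapped.

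For secreted products, the growth factor and matrix enzyme list held the only called gene of any list, Pdgfb. This growth factor gene for mesenchymal cells had 21, 38, 5 and 4 transcripts in 17, 15, 4 and 4 nuclei, with RPC against RP at −2.40 ± 0.51 (SE) on the log2 scale (adjusted p = 0.032, edgeR), and 23 of the 38 in RP2 lay in 1 nucleus. It was −2.33 without the 5 nuclei (adjusted p = 0.095, edgeR), and it did not pass without RP2 (−2.16). The protease gene Mmp12 had 30, 52, 22 and 0 transcripts, Igf1 had 12, 28, 27 and 24, and the complement gene C1qa 12, 17, 5 and 3 (−1.57, adjusted p = 0.33, edgeR).

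Lists of activation state and antigen presentation had few testable genes. The MHC class II list had 3 of 10, with Cd74 at 26, 17, 17 and 5 transcripts and its regulator Ciita at 19, 31, 17 and 4, and a median of −0.89, with no call. The alternative activation list had a median of −0.29 over 7 genes, the classical activation list −0.30 over 3 and the interferon list −0.26 over 6, all without a call by edgeR. The adhesion gene Vcam1, on the integrin and adhesion list, had 23, 25, 51 and 38 transcripts (1.13, adjusted p = 0.20, edgeR) and was higher in both RPC animals, in the other nuclei too (1.03). For the resident and interstitial list the median was 0.53 over 7 genes, and −1.05 without RPC2. The necroptosis list, which holds Casp8, had 4 tested genes and no call, and Cflar, the inhibitor of Casp8 activation, had 21, 26, 7 and 9 transcripts (−1.28, adjusted p = 0.30, edgeR).

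Finally, the RPC-over-RP change in the members was compared with that in all other kept nuclei, in a fit with the animal as a block. The difference passed the test for 12 of 18305 genes (0.0656%), 9 higher (0.0492%) and 3 lower (0.0164%), with 565 (3.09%) at an unadjusted p under 0.05. Most were genes of the 5 nuclei, and without these nuclei 2 of 18280 genes (0.0109%) passed, with 532 (2.91%) at an unadjusted p under 0.05. Prkcb, which encodes protein kinase C beta, a kinase of leukocyte signaling, was at 1156, 1039, 718 and 574 CPM in the members and at 52.7, 61.2, 113 and 129 CPM in all other nuclei. Both RPC animals were thus lower in the members and higher elsewhere, with log2 fold changes of −0.88 (SE 0.30, adjusted p = 0.24, edgeR) and 1.04. The difference between them was −1.85 (SE 0.33, adjusted p = 7.4e-05, edgeR), and −1.75 without the 5 nuclei (adjusted p = 7.5e-04, edgeR). It did not pass without RP1 (−1.70, adjusted p = 0.14, edgeR). In RP2, 53 of the 177 Prkcb transcripts lay in 1 nucleus.

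Kcnip4, a potassium channel regulator gene, was the other gene that passed in both fits. It had 15, 159, 42 and 27 transcripts in the members, where the genotypes overlapped, and 71.8, 501, 610 and 721 CPM in all other nuclei. The difference of the log2 fold changes was −1.98 (SE 0.38, adjusted p = 4.6e-04, edgeR), and −1.88 without the 5 nuclei (adjusted p = 0.0033, edgeR). RP1 was the lowest animal in both sets of nuclei, and the difference did not pass without RP2 (−1.87) or without RPC2 (−1.63).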

How the data were processed

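Single-nucleus RNA of 4 mouse tumors was sequenced as 7 split-pool libraries. The authors mapped reads to GRCm39 with the pipeline of the kit's maker and deposited, per animal, a matrix of transcript counts (unique molecules) for 56941 genes. No unit other than counts was used. Nuclei with at least 300 transcripts, at most 10% mitochondrial transcripts and at most 12000 genes were kept, 38254 in all (8363, 8874, 10853 and 10164 for RP1, RP2, RPC1 and RPC2), with 32299909 to 72446861 transcripts per animal deposited. Doublets were not called separately. Nothing beyond the animal is given as replicate, with 2 animals per genotype. In the edgeR fit of the members, the spread of each gene was drawn toward a spread shared over 3121 genes (14.8 prior degrees of freedom). Its p-values therefore rest largely on that shared spread, and less on the 2 animals per genotype for the gene itself.

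The members and gene lists were chosen with earlier results of these data known. Counts were summed per animal and tested with edgeR 4.0.16 (R 4.3.3, quasi-likelihood, TMM, filterByExpr), with Benjamini-Hochberg adjustment over all genes tested. DESeq2 1.42.0, RLE scaling, no filter, other marker thresholds, a replicate block and leaving out animals were alternatives. Further alternatives were chosen after the data were seen. They were members of at least 1000 transcripts thinned to that depth, and members without F13a1 or Cd163. The others were members without the 5 nuclei with fibroblast transcripts, and members as a share of marker nuclei. The edgeR steps were tested on simulated data. Levels (CPM) are per 1000000 summed transcripts, without TMM, and the offset in log2 ratios between sets of nuclei was 1 CPM. Members were clustered with leidenalg 0.10.2 (15 components, 15 neighbours, resolution 0.6). Gene positions came from the GENCODE annotation of GRCm39, matched on gene identifiers.

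Genes were named by rule: the 13 genes of the rule, the 20 with the highest ratio over all other kept nuclei, 10 per direction against alveolar-transcript nuclei, up to 10 called genes per direction by p, up to 10 genes of the comparison with the other nuclei, and from each of 30 lists up to 4 with the most transcripts and the 1 with the smallest p. Leading genes of the 3 groups, genes held by the 5 nuclei, and Trit1, Mycl, Rn18s-rs5, Lyve1, Folr2, Timd4, Maf, Selenop, Ptprc, S100a8, S100a9, Siglecf, Car4, Ear1, Cidec, Fabp1 and Ly6c2 were named after their values were seen. Results of some genes are not reported here.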

Additional observations from a re-analysis of the deposited data

Results flagged for a closer look

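For 12 genes the RPC-over-RP change in the members differed from that in all other kept nuclei, by edgeR's test of the difference with the animal as a block. On the log2 scale, members minus other nuclei, it was 4.12 for Pdzrn3, 4.10 for Csmd1, 2.88 for Eln, 3.86 for C7, 4.52 for Prr16, 2.18 for Prkg1, 2.46 for Dlc1, 1.505 for Macf1 and 3.83 for Grb10, and it was −1.85 for Prkcb, −1.98 for Kcnip4 and −2.04 for Kcnip1. The 5 members with more fibroblast-list than macrophage-list transcripts held 75.5% of the members' Pdzrn3 transcripts, 74.7% of those of Prkg1, 60.0% of those of Prr16, 54.2% of those of Dlc1 and 34.1% of those of Macf1. In the other nuclei Pdzrn3 was at 382 CPM in RP1 and at 21.1 to 53.9 CPM in the other 3 animals. Kcnip1 had an adjusted p of 0.049 and did not pass without the 5 nuclei (adjusted p = 0.19, edgeR).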

How the results depend on the processing

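The share of members was lower in RPC under all 12 alternatives. Where it was taken of kept nuclei, the difference ran from −0.423 to −0.192 percentage points. The p stood at its floor of 0.33 wherever all 4 animals entered, except with alveolar-transcript nuclei included (−0.282, p = 1 in the exact permutation test). The share of marker nuclei was also among the 12, with a difference of −21.1 points. Leaving out 1 animal moved that difference to −8.94 (RP1), −33.4 (RP2), −13.0 (RPC1) or −29.3 (RPC2). The number of genes called between RPC and RP members, 28 by edgeR, depended on the processing. It was 10 with DESeq2, 81 without the filter on low counts, 4 with alveolar-transcript nuclei included and 11 with members thinned to 1000 transcripts, and leaving out 1 animal gave 50 to 81, where the lone animal of a genotype is assumed to vary like the others. By edgeR it was 0 with a marker share of at least 0.4% (154 genes at an unadjusted p under 0.05). It was also 0 without members with 2 or more T, NK or B cell transcripts (130). The same held without members with F13a1 or Cd163 (314) and without the 5 nuclei with fibroblast transcripts (345), by edgeR. DESeq2 called 9 of the 28 genes. The animal numbers did not pair the animals (correlation of the deviations of RP1 and RPC1 0.014 over 3121 genes), and with the replicate block 78 genes were called, among them all 28.

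The comparison with the other nuclei called 12 genes by edgeR, 4 with DESeq2, 2 without the 5 nuclei, and 6 to 22 when 1 animal was left out. Without the 5 nuclei the difference turned for Pdzrn3 (−0.66), Eln (−0.72) and Grb10 (−1.06). Over all alternatives, 213 of 364 fold changes of the 28 genes kept the sign and either kept the call or had no adjusted p. The other 151 kept the sign but lost the call. Of 222 list medians under the alternatives, 48 were counted as moved and 174 as the same. The cause of these dependences was not tested, apart from the transcripts counted in the 5 nuclei. With 2 animals per genotype and 100997 to 170381 member transcripts per animal, only genes with many transcripts could be tested, and a gene that was not called is not shown to be alike in both genotypes.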
